A study of Homo sapiens with 16 samples.

Results

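Lysosome and autophagy genes were examined here as a fixed list of 41 genes, out of 20033 protein-coding genes placed on chromosomes of GRCh38. The rule names the genes and uses no measured value, but the list was drawn up with earlier results of these data known. For each of 13 deposited peak lists, a gene counted as marked when a peak shared at least 1 bp with the stretch 1 kb either side of either end of the gene, called a gene-end peak. A wider window, the gene with 5 kb to each side, was read beside it. BMAL1 was immunoprecipitated from U2OS, a human osteosarcoma cell line, and from a U2OS line named U2OS-CHRONO. Cells of both lines were treated with 200 nM dexamethasone, a glucocorticoid that synchronises the clocks of cultured cells, and collected every 4 h at times labelled 0, 4, 8, 12, 16 and 20 h, with 1 library per line and time. A library precipitated from U2OS-CHRONO with an antibody to Myc, named as the target Myc-CHRONO in the series design, carries no label of time or treatment. The 3 input samples were not analysed here, and neither the construct of U2OS-CHRONO nor whether it is a single clone is given in the sources used here.

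BMAL1 pairs with CLOCK and binds the E-box CACGTG to activate clock genes, and CHRONO, encoded by CIART, represses transcription driven by the pair. Lysosomes are acidified by the V-ATPase proton pump and digest what reaches them by endocytosis or by autophagy, in which a membrane closes around cytoplasm and fuses with the lysosome. Many lysosomal genes carry the CLEAR element GTCACGTGAC, which holds the same CACGTG core and is bound by TFEB and its relatives. Peak lists hold no expression values, so the cell line label could not be checked against markers, and the RNA of these genes was not measured.

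Lists held 337 to 9391 peaks. At every time the list of U2OS-CHRONO was longer than that of U2OS, and the U2OS list of 8 h was the shortest of all. Read depth is unknown, so a longer list from deeper sequencing or better enrichment and more binding cannot be told apart. The score of each peak is the authors' own value, with no definition in the sources used here, and gave the place of a peak within its list, as a top percentage in which a small number is a high place. A score of 100 or more served as a stricter filter, and whether scores of separate lists are on one scale is not known. No group had replicate libraries. The 6 times served as pairs, and a spread over them mixes time with technical variation.

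The promoters of LAMP1, CTSA and CLCN7 are shown because a BMAL1 peak lay over their annotated start in 10, 8 and 6 libraries. These are the 250 bases before the start, from the RefSeq promoters of GRCh38.p14, 5′ to 3′ in the direction of the gene, with CACGTG in capitals. LAMP1 lies at chr13:113296989-113297238 on the plus strand, CTSA at chr20:45891085-45891334 on the plus strand and CLCN7 at chr16:1475029-1475278 on the minus strand.
LAMP1: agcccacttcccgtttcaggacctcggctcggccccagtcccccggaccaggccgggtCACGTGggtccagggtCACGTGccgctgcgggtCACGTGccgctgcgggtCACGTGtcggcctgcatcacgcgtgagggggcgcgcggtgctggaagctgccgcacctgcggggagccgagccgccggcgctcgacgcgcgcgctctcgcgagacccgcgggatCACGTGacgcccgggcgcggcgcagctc
CTSA: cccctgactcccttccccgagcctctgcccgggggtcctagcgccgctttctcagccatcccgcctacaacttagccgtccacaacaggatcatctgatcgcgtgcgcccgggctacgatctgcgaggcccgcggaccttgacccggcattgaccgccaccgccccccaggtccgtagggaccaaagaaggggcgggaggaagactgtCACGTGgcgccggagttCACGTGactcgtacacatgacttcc
CLCN7: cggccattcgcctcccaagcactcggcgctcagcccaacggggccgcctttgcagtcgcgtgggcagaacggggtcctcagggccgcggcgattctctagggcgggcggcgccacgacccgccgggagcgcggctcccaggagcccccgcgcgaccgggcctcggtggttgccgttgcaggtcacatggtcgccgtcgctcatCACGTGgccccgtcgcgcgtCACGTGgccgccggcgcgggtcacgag

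With first bases counted from the start, LAMP1 held CACGTG at positions -192, -176, -159, -142 and -28, and once more at -1, across the start and not wholly within the printed stretch. CTSA held it at -42 and -25, and CLCN7 at -47 and -27. The promoter windows, from 250 bases before to 50 after the start, were on hand for 27 of the 41 members and for 15841 protein-coding genes. CACGTG, which reads the same on both strands, was present in 10 of the 27 member promoters (37.0%), against 8.83% of all promoters and 19.2% of those whose gene had a BMAL1 gene-end peak in some library. Its variant CACGTT, searched on both strands, was in none of the 27 and in 5.39% of all promoters. These are matches of letters and not measured sites. Whether members were picked for a promoter motif is not given in the sources used here, so their motif shares are descriptions and carry no test.

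The CLEAR element GTCACGTGAC stood in 2 of the 27 member promoters and in 0.549% of all. Those 2, GAA and MCOLN1, are shown as a contrast, chosen after their values were seen. GAA lies at chr17:80101331-80101580 and MCOLN1 at chr19:7522374-7522623, both on the plus strand.
GAA: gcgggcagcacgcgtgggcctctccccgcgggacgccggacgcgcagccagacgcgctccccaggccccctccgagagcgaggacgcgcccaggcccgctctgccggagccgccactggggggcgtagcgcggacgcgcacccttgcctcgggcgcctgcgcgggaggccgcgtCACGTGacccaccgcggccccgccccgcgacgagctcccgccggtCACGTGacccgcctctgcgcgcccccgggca
MCOLN1: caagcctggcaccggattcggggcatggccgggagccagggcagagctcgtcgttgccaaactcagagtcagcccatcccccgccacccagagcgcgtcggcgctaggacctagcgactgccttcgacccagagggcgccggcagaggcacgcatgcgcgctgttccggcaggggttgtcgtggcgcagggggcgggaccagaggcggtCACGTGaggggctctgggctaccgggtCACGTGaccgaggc

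GAA, which breaks down lysosomal glycogen, held the whole element 2 times and had no BMAL1 peak in the gene or within 5 kb in any of the 12 libraries. MCOLN1, a calcium channel of the lysosomal membrane, had 1 peak, at 0 h in U2OS, which stood in the top 98.6% of its list. CTSD, NEU1 and ATP6V0D1 also held CACGTG and had no BMAL1 gene-end peak. So 6 of the 14 member promoters with a BMAL1 gene-end peak held the motif, and 4 of the 13 without one. Over all genes, 665 of 3455 promoters with a BMAL1 gene-end peak held it, against 1398 of all 15841 promoters.

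The first comparison asked how many of these genes BMAL1 marked at each time in each line. A BMAL1 gene-end peak stood at 26 of the 41 members in at least 1 of the 12 libraries, against 20.8% of all protein-coding genes. UVRAG had one in 11 libraries, LAMP1 in 10, ATP6V1H in 9, CTSA in 8 and CLCN7 in 6. These 5 are the members marked in 6 or more libraries (12.2%), against 4.66% of all genes. In 3 or more libraries 19 members were marked, against 9.63%. The other 21 marked members had peaks in 1 to 5 libraries, and 7 of them in only 1 or 2. Because of how the list was drawn up, its counts are descriptions and carry no test.

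**Figure D1:**
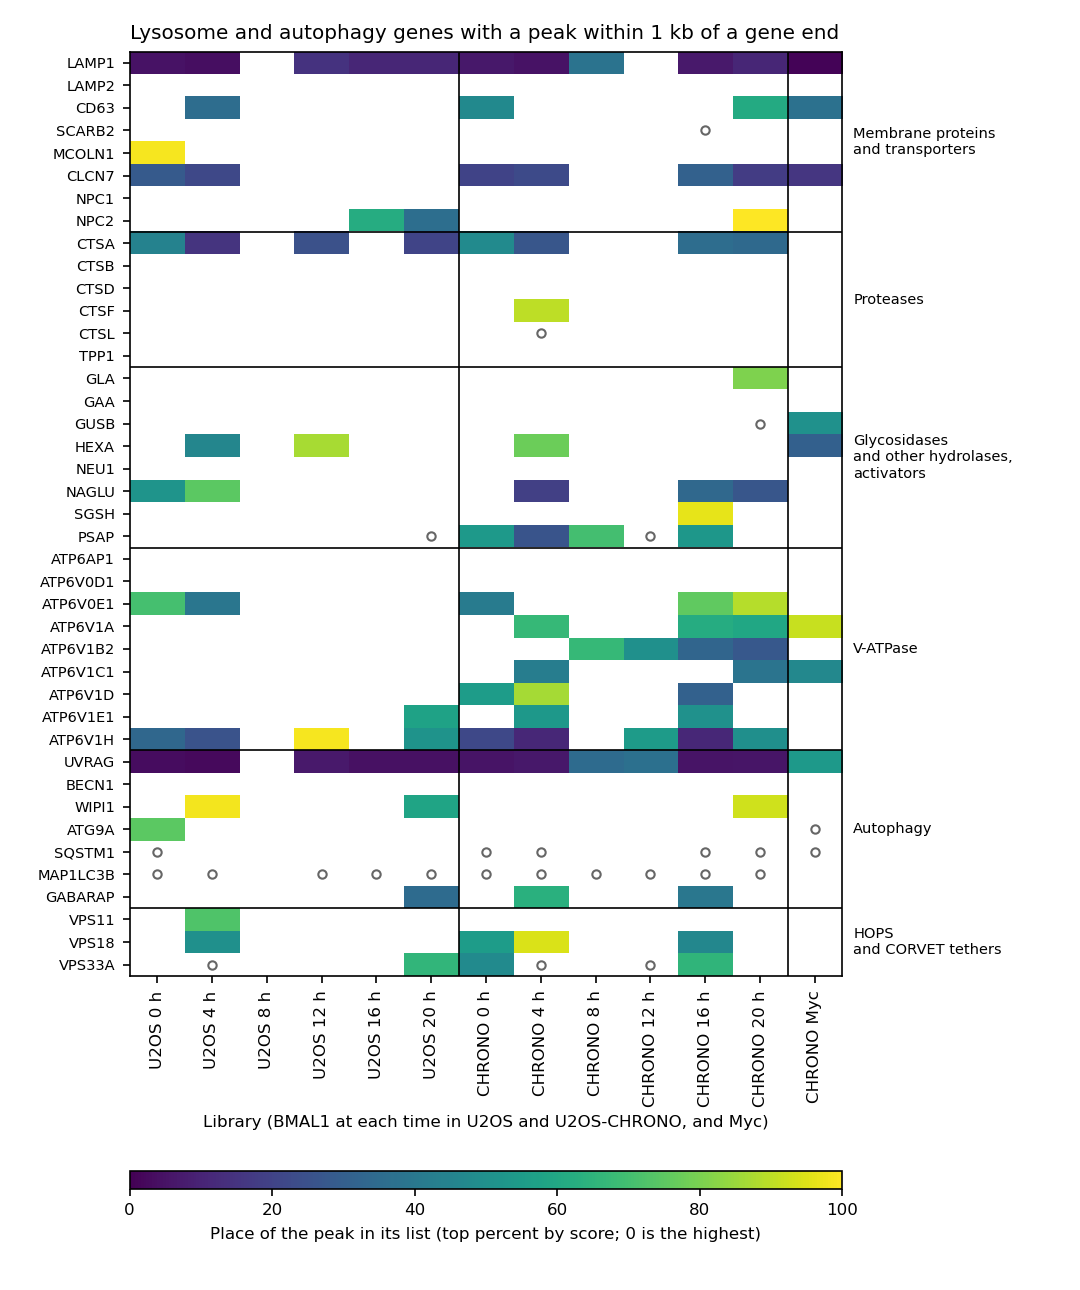
Each row is a gene and each column a library; colour gives the place of the highest gene-end peak in its list (top percent by score), and open circles mark a peak found only elsewhere in the gene or within 5 kb. UVRAG and LAMP1 are dark in most columns, and the U2OS column of 8 h is empty.

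In U2OS the members marked numbered 9, 12, 0, 5, 3 and 9 at 0, 4, 8, 12, 16 and 20 h. The shares of all protein-coding genes at those times were 5.01%, 6.8%, 0.484%, 2.16%, 3.84% and 6.45%. In U2OS-CHRONO the members marked numbered 11, 15, 4, 3, 16 and 14, beside 9.26%, 11.3%, 2.76%, 4.25%, 12.2% and 8.65% of all genes. As shares of the 41, they ran from 0% to 29.3% in U2OS and from 7.32% to 39.0% in U2OS-CHRONO. The share of members exceeded that of all genes in 11 of the 12 libraries, by 1.72 to 5.64 times, and the exception was 8 h in U2OS.

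Both lines had few members marked at 8 and 12 h, when their lists were shortest. Those lists held 337 and 1808 peaks in U2OS and 2429 and 3919 in U2OS-CHRONO. At 12 h in U2OS the share of members was still 5.64 times that of all genes, the highest ratio of any library. In U2OS 16 h was also low, with 3 members, while in U2OS-CHRONO 16 h was the highest time, with 16. U2OS had 6.33 ± 4.46 members marked (SD, n = 6 times) and U2OS-CHRONO 10.5 ± 5.68. The difference was 4.17 ± 4.96, smaller than its spread over the times, with more members in U2OS-CHRONO at 5 of 6 times and fewer at 12 h. Without 16 h it was 2.40. When both lists of a time were reduced to the same number of highest-scoring peaks, U2OS-CHRONO had 11, 10, 0, 1, 3 and 11 members marked, and the difference turned to -0.33 ± 2.34. Under that alternative U2OS-CHRONO had more members at 2 times, as many at 2 and fewer at 2.

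**Figure D2:**
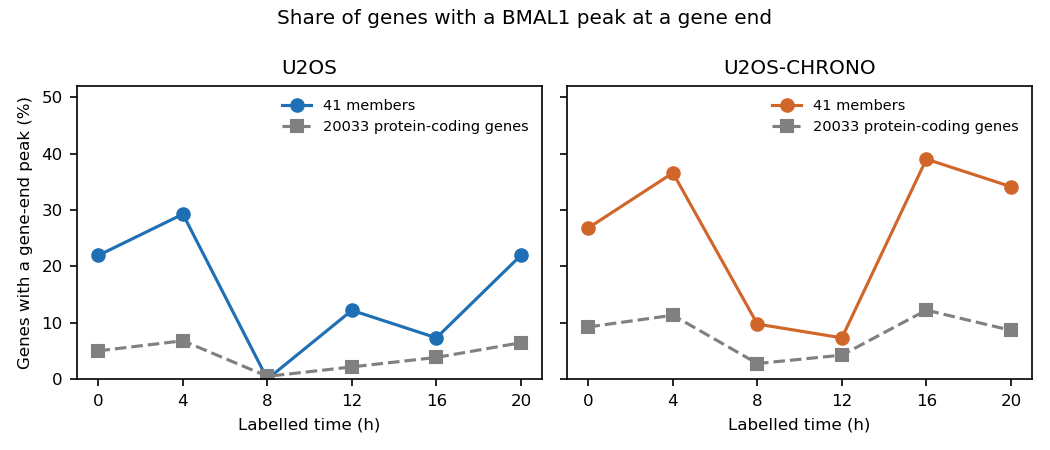
Percentage of the 41 members (circles) and of all 20033 protein-coding genes (squares) with a BMAL1 gene-end peak against the labelled time in hours, by line, 1 library per point. The members reach 39.0% in U2OS-CHRONO at 16 h and 0% in U2OS at 8 h.

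Each protein-coding gene was tested for a difference between the lines by an exact two-sided permutation test that flips the sign of paired differences, 1 per time, and p-values were adjusted after Benjamini and Hochberg for all 20033 genes. No gene passed an adjusted p of 0.05 (0% called). At an unadjusted p under 0.05, 16 genes (0.0799%) were called, none of them a member, and without pairing by time the exact permutation test called 77 (0.384%) unadjusted, again no member, and none after adjustment. The 6 pairs allow no p below 0.031, so the adjusted test could not have called any single gene here. The lowest member p was 0.125.

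By counts alone, 18 members were marked at more times in U2OS-CHRONO, against 15.1% of all genes, and 6 at more times in U2OS, against 3.48%. LAMP1 and CTSA were marked equally often in both lines, against 2.29% of all genes. In U2OS 18 members had a peak at some time, against 11.1% of all genes, and in U2OS-CHRONO 23, against 18.3%. Both counts share 15 members, and 26 members had a peak in either line, against 20.8% of all genes. A surplus of 3 or more times in U2OS-CHRONO was reached by 4 members (3.7% of all genes), 2 of them with 4 times (1.48% of all genes), and in U2OS by none (0.15% of all genes). At equal list sizes 8 members had more times in U2OS-CHRONO (7.64% of all genes) and 9 in U2OS (5.59%). No member then reached a surplus of 3 in either line, against 1.16% and 0.384% of all genes.

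Among membrane proteins and transporters, 5 of 8 members were marked, against 20.8% of all genes. LAMP1, an abundant glycoprotein that lines the inside of the lysosomal membrane, lies on chromosome 13 from 113297239 to 113323672. In U2OS its highest peak stood in the top 4.83%, 3.65%, 14.5%, 10.7% and 10.7% of the lists of 0, 4, 12, 16 and 20 h. In U2OS-CHRONO the places were 6.63%, 4.90%, 38.2%, 6.91% and 10.6% at 0, 4, 8, 16 and 20 h. LAMP1 lacked a peak at 8 h in U2OS and at 12 h in U2OS-CHRONO, and its place at 8 h in U2OS-CHRONO was the lowest.

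The LAMP1 peaks joined into a region of 955 bp, from 113296480 to 113297434, which spans the start and the printed promoter. Beside it, 2 weaker regions appeared, centred at -1407 bp from the start, in U2OS-CHRONO at 4 and 16 h, and at 1062 bp, in U2OS at 16 h and U2OS-CHRONO at 4 and 16 h.

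CLCN7, a chloride-proton exchanger of the lysosome, lies on chromosome 16 from 1444935 to 1475028. It was marked at 0 and 4 h in U2OS, in the top 28.2% and 21.8%. In U2OS-CHRONO it was marked at 0, 4, 16 and 20 h, in the top 20.3%, 22.5%, 30.9% and 17.8%. All 6 peaks had scores above 100 and lay within 1 region of 526 bp over the start.

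CD63, a tetraspanin, was marked at 4 h in U2OS and at 0 and 20 h in U2OS-CHRONO, in the top 35.6%, 47.5% and 61.2%. Those peaks were centred 828 to 880 bp inside the gene, where the antisense gene CD63-AS1 overlaps it. NPC2, which hands cholesterol to NPC1 in the lysosome, was marked at 16 and 20 h in U2OS and at 20 h in U2OS-CHRONO. These peaks stood in the top 62.0%, 36.0% and 99.8%. Its peaks also marked ISCA2. NPC1, the membrane partner of NPC2, and LAMP2, the relative of LAMP1, had no BMAL1 peak in the gene or within 5 kb in any library, and SCARB2, a receptor of the lysosomal membrane, had 1 inside the gene.

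**Figure D3:**
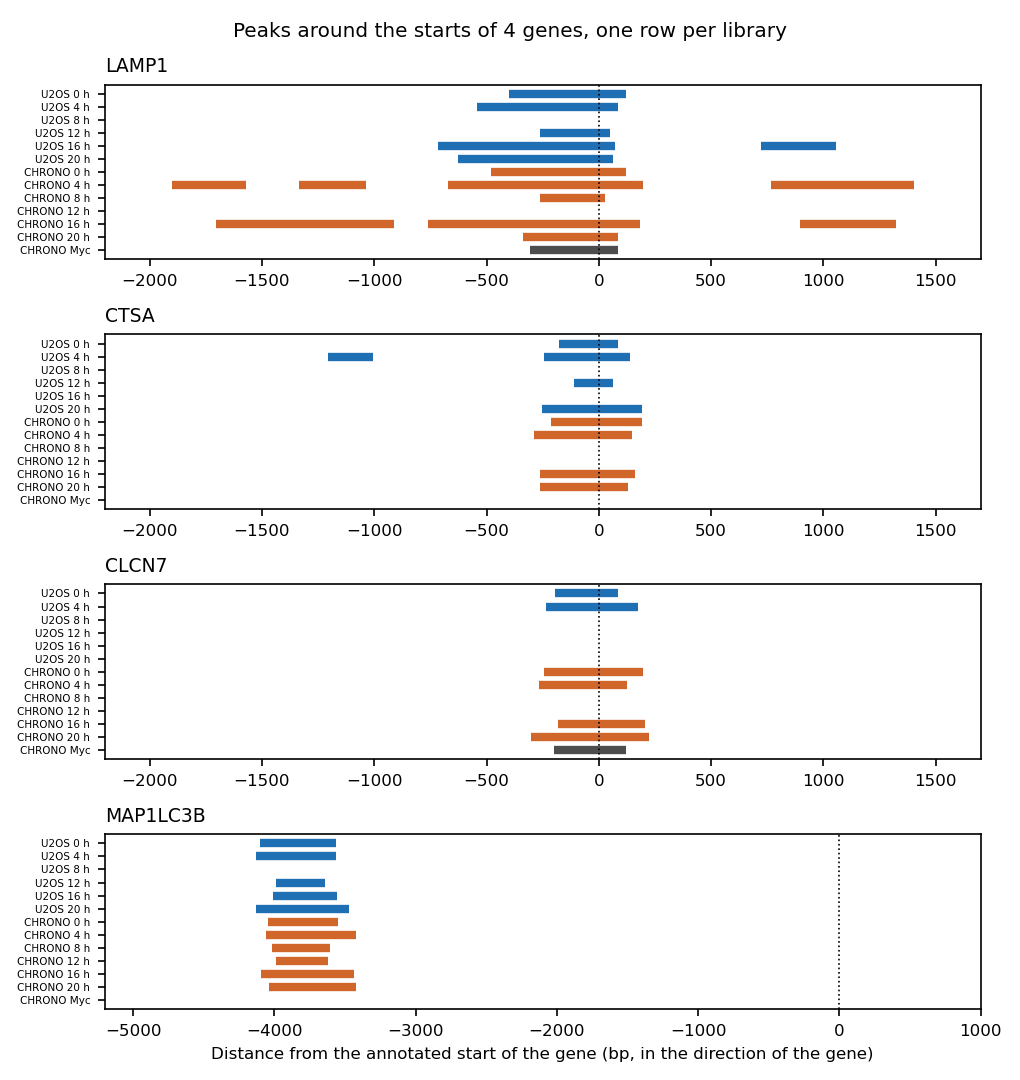
Peaks of each library (rows; blue U2OS, orange U2OS-CHRONO, grey Myc) around the annotated start, in bp along the direction of the gene, for LAMP1, CTSA, CLCN7 and MAP1LC3B. Each library that marked LAMP1, CTSA or CLCN7 had a peak over the start, and those of MAP1LC3B are centred between -3844 and -3728 bp.

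Of the 6 proteases, 2 were marked, against 20.8% of all genes. CTSA, a carboxypeptidase that also protects other lysosomal enzymes, lies on chromosome 20 from 45891335 to 45898820. It was marked at 0, 4, 12 and 20 h in U2OS, in the top 44.4%, 15.2%, 24.6% and 20.3%. In U2OS-CHRONO it was marked at 0, 4, 16 and 20 h, in the top 48.0%, 26.8%, 35.7% and 34.1%. The peaks were centred between -70 and -9 bp from the start, and each also marked NEURL2 and SPATA25. CTSF, a cysteine protease, had 1 peak, at 4 h in U2OS-CHRONO, in the top 89.9%. CTSB, CTSD and TPP1 had no BMAL1 peak in the gene or within 5 kb, and CTSL had 1 inside the gene.

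Of the 8 glycosidases, other hydrolases and activators, 5 were marked, against 20.8% of all genes. NAGLU, which trims heparan sulfate, was marked at 0 and 4 h in U2OS, in the top 51.7% and 74.8%. In U2OS-CHRONO it was marked at 4, 16 and 20 h, in the top 18.9%, 33.7% and 26.6%. HEXA, the alpha chain of hexosaminidase, was marked at 4 and 12 h in U2OS and at 4 h in U2OS-CHRONO, in the top 45.7%, 87.0% and 77.4%. GLA and SGSH each had 1 peak, in U2OS-CHRONO, in the top 80.5% and 96.4%, and those peaks also marked HNRNPH2 and SLC26A11.

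PSAP, the precursor of the saposins that help lipid hydrolases, had the largest surplus of times of this role. It had a gene-end peak at no U2OS time and at 0, 4, 8 and 16 h in U2OS-CHRONO, in the top 54.1%, 26.0%, 70.3% and 53.0%. The exact paired permutation p was 0.125 and the adjusted p 1. At equal list sizes 2 of those 4 times remained. Inside PSAP, a separate region centred at -15003 bp from its upper end was marked at 1 U2OS time and 2 U2OS-CHRONO times. GAA and NEU1, a sialidase, had no BMAL1 peak in the gene or within 5 kb.

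V-ATPase genes were marked in 7 of 9 cases, against 20.8% of all genes. Each of the 7 was marked at more times in U2OS-CHRONO than in U2OS, against 15.1% of all genes. Counted over genes and times, they were marked 7 times in U2OS and 22 times in U2OS-CHRONO, a ratio of 3.14. The ratio was 1.66 for all 41 members and 1.96 for all protein-coding genes. At equal list sizes the V-ATPase counts were 7 and 11, a ratio of 1.57, with 4 genes at more times in U2OS-CHRONO and 1 at more in U2OS. The ratio over all genes was then 1.19. With full lists and without 16 h, the ratio was 2.29 for the V-ATPase, 1.34 for all 41 members and 1.73 for all protein-coding genes. ATP6V1B2, ATP6V1C1 and ATP6V1H all lie on chromosome 8, and copy number in the lines was not measured.

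ATP6V1H, a regulatory subunit of the cytosolic domain of the pump, lies on chromosome 8 from 53715543 to 53843245. It was marked at 0, 4, 12 and 20 h in U2OS, in the top 33.4%, 25.5%, 98.7% and 51.2%. In U2OS-CHRONO it was marked at 0, 4, 12, 16 and 20 h, in the top 21.8%, 11.2%, 54.9%, 11.1% and 49.8%. Its highest places were thus those of 4 and 16 h in U2OS-CHRONO.

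ATP6V1B2, a subunit of the head that splits ATP, had no U2OS peak and was marked at 8, 12, 16 and 20 h in U2OS-CHRONO. Those peaks stood in the top 67.0%, 50.01%, 32.7% and 27.5% of their lists, within 1 region of 401 bp at the lower end of the gene. The exact paired permutation p was 0.125 and the adjusted p 1, and at equal list sizes 1 of the 4 times remained.

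ATP6V1A, the catalytic subunit, and ATP6V1D, part of the rotating stalk, had 3 U2OS-CHRONO times each and no U2OS time. For ATP6V1A these were 4, 16 and 20 h, in the top 67.1%, 61.8% and 59.7%, and its peaks also marked NAA50. For ATP6V1D they were 0, 4 and 16 h, in the top 55.3%, 86.7% and 31.2%, and its peaks also marked EIF2S1. For both the exact paired permutation p was 0.25, and at equal list sizes each kept 1 time.

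The remaining marked V-ATPase genes had peaks in the top 38.5% to 89.0% of their lists. ATP6V0E1, of the membrane domain, was marked at 0 and 4 h in U2OS, in the top 70.4% and 39.4%, and at 0, 16 and 20 h in U2OS-CHRONO, in the top 41.8%, 75.4% and 89.0%. ATP6V1E1, of the outer stalk, was marked at 20 h in U2OS and at 4 and 16 h in U2OS-CHRONO, in the top 57.5%, 53.5% and 50.6%, by peaks that also marked BCL2L13. ATP6V1C1 was marked at 4 and 20 h in U2OS-CHRONO. ATP6AP1 and ATP6V0D1 had no BMAL1 peak in the gene or within 5 kb.

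Autophagy genes were marked in 4 of 7 cases, against 20.8% of all genes. UVRAG, a partner of BECN1 in the lipid kinase complex that drives autophagosome and endosome maturation, lies on chromosome 11 from 75815210 to 76144232. In U2OS its peak stood in the top 3.15%, 2.67%, 7.02%, 4.51% and 4.36% of the lists of 0, 4, 12, 16 and 20 h. In U2OS-CHRONO it stood in the top 5.13%, 6.47%, 35.0%, 37.0%, 5.31% and 5.73% at 0, 4, 8, 12, 16 and 20 h. UVRAG was thus high in every BMAL1 list that held it except those of 8 and 12 h in U2OS-CHRONO.

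The UVRAG peaks of all 11 libraries joined into a region of 963 bp, from 75814382 to 75815344, which reaches over the lower end of the gene and overlaps the divergent gene UVRAG-DT. With the highest-scoring 337 peaks of each BMAL1 list, the length of the shortest, only UVRAG and LAMP1 of the 41 members were marked, against 1.5% of all genes. UVRAG was then marked at 5 U2OS times and 1 U2OS-CHRONO time, and LAMP1 at 4 and 0.

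MAP1LC3B, which encodes the LC3 protein that coats autophagosomes, had no gene-end peak but was marked in 11 of 12 BMAL1 libraries within 5 kb, with 8 h in U2OS as the exception. In the gene or within 5 kb, 4.06% of all genes were marked in 10 or more libraries. The peaks formed a region of 710 bp on chromosome 16, from 87388208 to 87388917, centred at -3774 bp from the start of MAP1LC3B. That region lies inside the neighbouring gene FBXO31, which encodes an F-box protein, and inside the non-coding gene LOC124903747. In U2OS the peak stood in the top 8.04%, 6.39%, 12.8%, 10.2% and 2.71% at 0, 4, 12, 16 and 20 h. In U2OS-CHRONO it stood in the top 6.90%, 6.89%, 27.5%, 8.85%, 5.47% and 4.82% at 0, 4, 8, 12, 16 and 20 h.

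**Figure D4:**
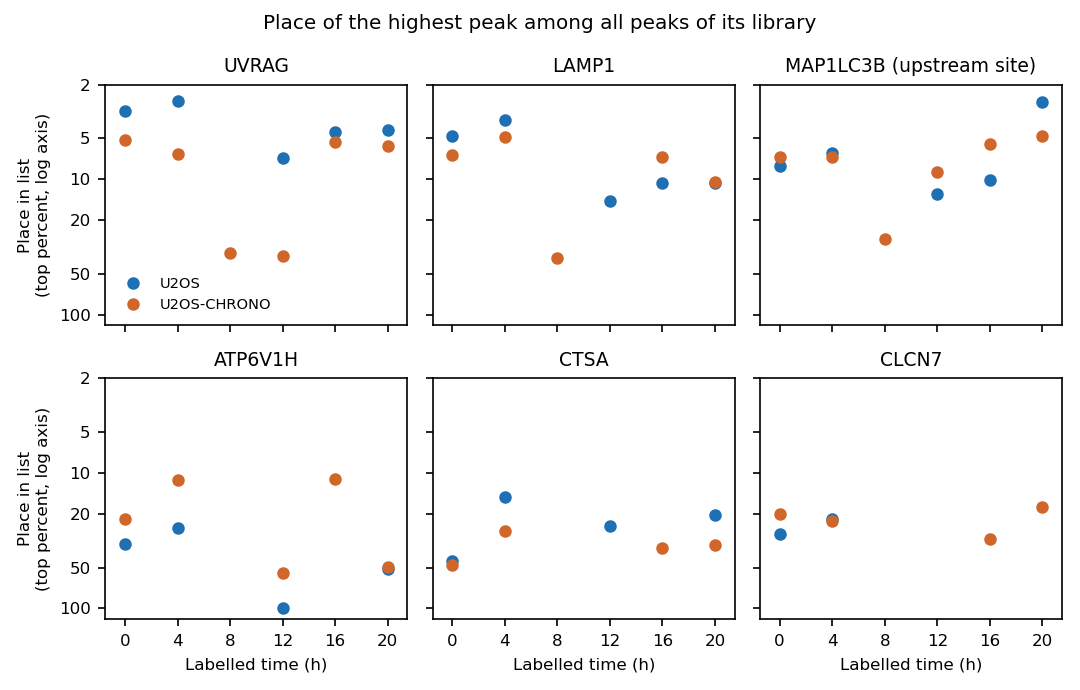
Place of the highest BMAL1 peak in its list (top percent by score, log axis, high places at the top) against the labelled time in hours. Shown are 5 members at the gene end and the MAP1LC3B upstream site, 1 point per BMAL1 library that held a peak. UVRAG and LAMP1 lie in the top 2.67% to 14.5% except at 8 and, for UVRAG, 12 h in U2OS-CHRONO.

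SQSTM1, the autophagy receptor p62, was marked only inside the gene, in a region centred 13175 bp after its start and another beside it. Together these held a peak at 0 h in U2OS and at 0, 4, 16 and 20 h in U2OS-CHRONO, in the top 66.7%, 78.9%, 43.6%, 24.7% and 95.96%. GABARAP, a relative of LC3, was marked at 20 h in U2OS and at 4 and 16 h in U2OS-CHRONO, in the top 35.0%, 63.3% and 39.6%. At 4 h in U2OS-CHRONO that place was of a peak centred 2732 bp after the start, past the other end of the gene. A GABARAP peak at the start stood in the top 80.4% of the same list. GABARAP peaks also marked CTDNEP1 in 2 libraries and PHF23 in 1.

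WIPI1, a phosphoinositide binder of the early autophagosome, was marked at 4 and 20 h in U2OS and at 20 h in U2OS-CHRONO, in the top 98.3%, 58.4% and 92.6%. ATG9A, a lipid scramblase that seeds autophagosomes, was marked at 0 h in U2OS alone, by a peak that also marked ANKZF1. BECN1, the partner of UVRAG, had no BMAL1 peak in the gene or within 5 kb.

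The 3 tethers of HOPS and CORVET, which dock vesicles at the late endosome and lysosome, were all marked, against 20.8% of all genes. Their gene-end peaks stood in the top 46.3% to 94.4% of their lists. VPS18 was marked at 4 h in U2OS and at 0, 4 and 16 h in U2OS-CHRONO, in the top 50.03%, 55.3%, 94.4% and 46.3%. VPS33A was marked at 20 h in U2OS and at 0 and 16 h in U2OS-CHRONO, in the top 65.9%, 48.0% and 65.5%. A further VPS33A region, centred at -3315 bp from its lower end and overlapping DIABLO, a cell death gene, was marked at 1 U2OS time and 4 U2OS-CHRONO times. VPS11 was marked at 4 h in U2OS alone, in the top 72.5%.

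In all, 15 members had no BMAL1 gene-end peak. Of these, 5 had a peak elsewhere in the gene or within 5 kb, namely SCARB2, CTSL, GUSB, SQSTM1 and MAP1LC3B. The other 10 had none in the wider window, which 41.5% of all genes had in some library. The 111 BMAL1 gene-end peaks of the members had a median place in the top 42.5%, against 43.9% for the 13411 gene-end peaks of all genes. Where strand was known, 14 of 27 members had a peak within 1 kb of the start, against 21.8% of genes with known strand. A score of 100 or more was reached by 39 of the 111, against 5052 of the 13411 peaks of all genes. The 39 lay at 9 members, against 7.61% of all genes: LAMP1, CLCN7, CTSA, NAGLU, PSAP, ATP6V1B2, ATP6V1D, ATP6V1H and UVRAG.

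The second comparison asked which members the Myc library marked. It held 2487 peaks and marked 8 of the 41 members (19.5%), against 5.36% of all genes. These were LAMP1, CLCN7, CD63, HEXA, GUSB, ATP6V1A, ATP6V1C1 and UVRAG. BMAL1 also marked 7 of the 8, and 738 of the 1074 Myc-marked genes among all protein-coding genes. Marked by both were thus 7 of the 41 members and 3.68% of all genes. In all 7 the Myc peak shared bases with a BMAL1 peak. GUSB, a glucuronidase, was the exception, with a Myc peak in the top 50.5% and no BMAL1 gene-end peak.

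LAMP1 had the highest Myc peak of the members, at rank 21, the top 0.844%. That peak, from 113296931 to 113297326 on chromosome 13, covers the printed promoter and overlapped a BMAL1 peak at 5 times in each line. CLCN7 had the next gene-end peak, in the top 15.9%, and overlapped a BMAL1 peak at 2 U2OS and 4 U2OS-CHRONO times. HEXA stood in the top 30.8%, CD63 in the top 37.2%, ATP6V1C1 in the top 46.7% and ATP6V1A in the top 91.8%.

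UVRAG, the member marked by BMAL1 in the most libraries, was in the top 54.2% of the Myc list. Its Myc peak overlapped a BMAL1 peak at 5 U2OS and 6 U2OS-CHRONO times. CTSA and ATP6V1H, marked by BMAL1 in 8 and 9 libraries, had no Myc peak in the gene or within 5 kb, nor did MAP1LC3B. SQSTM1 had 2 Myc peaks inside the gene, in the top 13.8% and 86.9%, and ATG9A had 1 within 5 kb. With a score of 100 or more, LAMP1 alone of the members was marked in this library, against 0.629% of all genes. Within 1 kb of a known start it marked 4 of 27 members, against 5.71% of genes.

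Other genes of the pathway were read from 6 further lists with 119 genes. Of these, 42 (35.3%) had a BMAL1 gene-end peak in some library, and 17 in 6 or more (14.3%), against 20.8% and 4.66% of all genes. More times in U2OS-CHRONO were found for 23, against 15.1% of all genes, and more in U2OS for 9, against 3.48%. The Myc library marked 10 (8.40%), against 5.36% of all genes. None passed the adjusted test.

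Genes that dock the growth kinase mTORC1 at the lysosome were marked in 6 of 9 cases, against 20.8% of all genes. RRAGB and RRAGC, small GTPases of that platform, were marked in 12 and 11 libraries and LAMTOR4, a scaffold subunit, in 10. Other autophagy genes were marked in 12 of 39 cases, against the same share of all genes. ATG3, which joins LC3 to lipid, GABARAPL2, an LC3 relative, and SNAP29, a fusion protein of the autophagosome, were each marked in 11. The peaks of ATG3 and SNAP29 were shared with SLC35A5 and PI4KA.

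Other hydrolases and activators were marked in 9 of 28 cases. For this and the following lists, the share of all genes marked was 20.8%. GALNS, which trims keratan sulfate, led the hydrolases in 11 libraries with peaks shared with TRAPPC2L, then GM2A in 7 and SMPD1 in 3. Other membrane and sorting genes were marked in 8 of 21 cases, led by LAPTM4A and M6PR, the mannose 6-phosphate receptor, in 8 each and CLN3 in 5. The M6PR peaks also marked KLRG1. Other V-ATPase genes were marked in 3 of 16 cases (18.8%), against 20.8% of all genes. They were ATP6V0C in 10 libraries, ATP6V0B in 6 and ATP6V1G1 in 1. The ATP6V0C peaks also marked AMDHD2. Over genes and times the other V-ATPase genes had 7 marks in U2OS and 10 in U2OS-CHRONO. Other HOPS and CORVET genes were marked in 4 of 6 cases, with VPS8 in 6 libraries and VPS33B, VPS41 and TGFBRAP1 in 1 each.

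**Figure D5:**
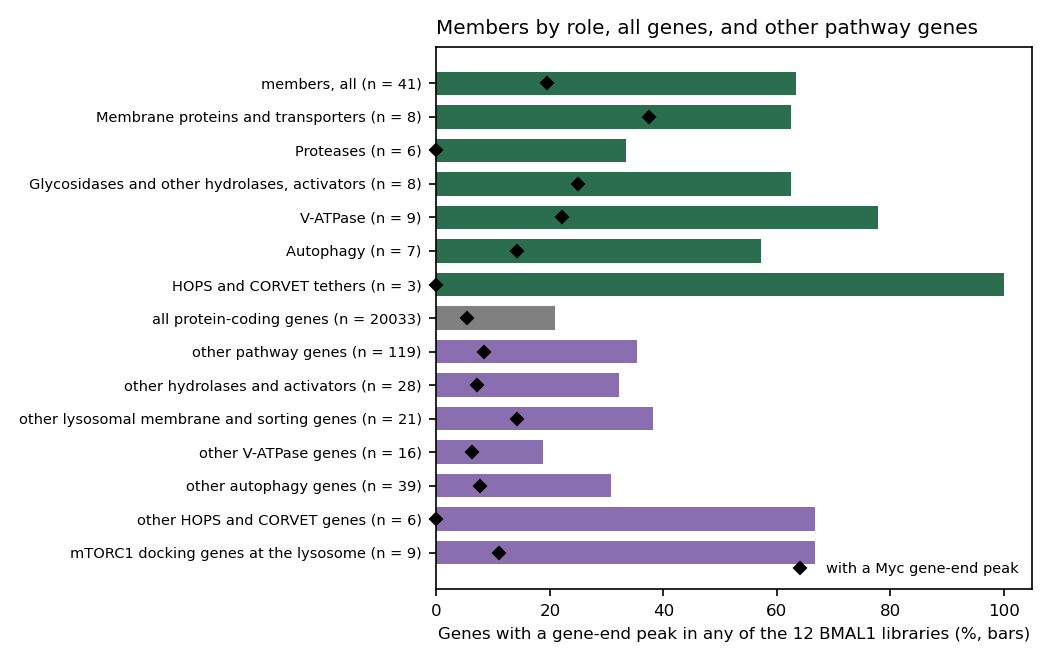
Bars give the percentage of each list's genes with a BMAL1 gene-end peak in any of the 12 libraries, and diamonds the percentage with a Myc gene-end peak, for the members by role (green), all protein-coding genes (grey) and other pathway genes (purple). The V-ATPase bars stand at 77.8% for members and 18.8% for the other genes of the complex. Both lists were chosen with earlier results of these data known, and the gap was not tested.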

How the data were processed

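Chromatin was cross-linked with formaldehyde, sonicated and sequenced as DNA nanoballs, per the labels' protocols. Build hg38 and the tools HOMER 4.10.3, MACS 1.4.2 and bedtools appear in the submitters' processing notes, without their roles. For the aligner, depth and control, nothing was given in the sources used here. Each deposited list gives 1 score per peak, the authors' own value, from 50 to 3200.

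Genes and promoters came from RefSeq tables of GRCh38.p14, the same assembly as hg38; all 41 members were found. Strand was known for 27. BED starts were moved to 1-based. Overlap counts equalled those of bedtools 2.31.1 in 13 of 13 libraries. The paired test was run on simulated data as a check of its code. As 6 pairs allow no p below 0.031, that run could not show the adjusted test calling a changed gene. Python 3.11.15, NumPy 2.4.6, pandas 2.3.3 and matplotlib 3.10.9 were used.

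Members and lists were chosen with earlier results of these data known. Named were all members with a gene-end peak in 3 or more BMAL1 libraries, all with a Myc gene-end peak, the others by role, and up to 3 genes per further list. Alternatives changed the window, overlap, score minimum, list length, chromosomes, pairing and times.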

Additional observations from a re-analysis of the deposited data

Results flagged for a closer look

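Each of 17 sets of 4 to 6 libraries of a line was searched for a single distant value, and 1 set held one. It was the place of LAMP1 in the U2OS-CHRONO lists: the top 38.2% at 8 h, against 10.6% or higher at the other 4 times with a peak, a gap that takes up 0.83 of the range of the set. About 1 set in 20 would show this by chance. The U2OS-CHRONO list of 8 h was the shortest of that line, with 2429 peaks, and its part in the value was not tested.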

How the results depend on the processing

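The mean surplus of marked members in U2OS-CHRONO, 4.17, kept its sign with wider windows, peak centres, chromosomes 1 to 22 and X, a score of at least 100 (1.17) and the start alone (0.83, for the 27 members with a known strand), and was 2.40 to 5.40 with each time left out. It turned to -0.33 with equal list sizes at each time and to -1.33 with the top 337 peaks of all 12 lists; both shorten the U2OS-CHRONO lists more. Marked members numbered 24 to 26 with a time left out, 14 of 27 at the start alone, 9 with a score of at least 100 and 2 with the top 337 peaks. Myc marked 4 of 27 members at the start alone and 1 with a score of at least 100. No gene passed the adjusted test under any alternative; at an unadjusted p under 0.05 there were 26 with 5 kb around the gene ends, 34 in the gene or within 5 kb, 5 with a score of at least 100, 0 at equal list sizes within a time, 4 with the top 337 peaks, 77 when lines were not paired by time and 0 to 0 with 1 time left out, where 5 pairs allow no p below 0.0625. The mean V-ATPase surplus, 2.50, was 0.67 ± 1.03 at equal list sizes within a time. With a score of at least 100 it was 0.83 ± 1.17. With the top 337 peaks it was 0, because no V-ATPase member was marked in either line. Of the 19 members marked in 3 or more libraries, 16 moved by over 1.5 times with a score of at least 100 and 6 at equal list sizes within a time. A gene without a peak was not detected at an unknown depth, which does not show absence of binding.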

Other observations

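MAP1LC3B2, a near copy of MAP1LC3B on chromosome 12, was singled out after its values were seen. A gene-end peak marked it at all 6 times in U2OS-CHRONO and never in U2OS (exact paired permutation p = 0.031, adjusted p = 1), in the top 60.8% of the lists on average, and with a score of 100 or more in 2 libraries. How reads that match both copies were placed is not stated, so its values are uncertain. GABARAPL1, a further LC3 relative named after its values were seen, had such a peak at 2 U2OS and 6 U2OS-CHRONO times (exact paired permutation p = 0.125, adjusted p = 1).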
